A study of Homo sapiens with 12 samples.

Results

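The measured genes were SQOR, ETHE1, SUOX and SELENBP1, which encode enzymes that oxidize hydrogen sulfide and related sulfur compounds. They were chosen by name, through the symbols of the Ensembl gene identifiers, and are 4 of the 57500 genes counted in every library. The 12 RNA libraries came from HepG2, a line grown from a human hepatocellular carcinoma, with 4 replicates per group. WT was the wild-type control. shTST cells carried a lentiviral shRNA against TST, and overTST cells carried a lentiviral, codon-optimized TST coding sequence behind the CMV promoter. The lines were selected with Blasticidin as transduced populations, no empty-vector line is among the libraries, and all groups were kept in ordinary culture medium with 400 µM glycine for 24 h. TST encodes thiosulfate sulfurtransferase, the mitochondrial enzyme that moves sulfur from thiosulfate to cyanide, so the libraries allow the question of whether the genes of the neighbouring sulfide oxidation route differed when TST was lowered or raised.

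Hydrogen sulfide at high levels inhibits cytochrome c oxidase, as cyanide does, and mitochondria remove it by oxidation. SQOR, the sulfide:quinone oxidoreductase of the inner membrane, takes the first step and passes the electrons to coenzyme Q, with glutathione as the usual acceptor of the sulfur. ETHE1, a persulfide dioxygenase of the matrix, oxidizes the resulting glutathione persulfide to sulfite. SUOX, the molybdenum-dependent sulfite oxidase of the intermembrane space, converts sulfite to sulfate and reduces cytochrome c. TST can instead join sulfite with persulfide sulfur to form thiosulfate. SELENBP1 encodes methanethiol oxidase, a selenium-binding enzyme known mainly from the cytosol, which releases hydrogen sulfide from methanethiol and is therefore a feeder of the route rather than 1 of its mitochondrial steps.

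SQOR (ENSG00000137767) lies on the plus strand of chromosome 15 at 45631148 to 45691294 of GRCh38, with 3088 exonic bases in 13 merged exons. ETHE1 (ENSG00000105755) lies on the minus strand of chromosome 19 at 43506719 to 43527244, with 1604 exonic bases in 6 merged exons. SUOX (ENSG00000139531) lies on the plus strand of chromosome 12 at 55997180 to 56006641, with 5008 exonic bases in 6 merged exons. SELENBP1 (ENSG00000143416) lies on the minus strand of chromosome 1 at 151364302 to 151372733, with 3504 exonic bases in 11 merged exons. The 881 exonic bases of SQOR that are shared with a same-strand gene, ENSG00000260170, make up 28.5% of its length, and that gene held 0 to 1 counts per library. ETHE1 shares 238 exonic bases, 14.8% of its length, with ZNF575 on the opposite strand, which held 17 to 56 counts. SUOX and SELENBP1 shared no exonic base with another annotated gene.

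The start regions of SQOR and ETHE1 held the same motif counts, and that of SUOX differed. Of the 4 genes, 3 have an entry in the RefSeq promoter table (GRCh38.p14), and 6 motifs were searched on both strands in the 250 bases before each start. These RefSeq starts differ from the outer ends of the counted genes. The SQOR and SUOX stretches printed below lie inside the gene spans given above. The GC box, GGGCGG, occurred 4 times before SQOR and 4 times before ETHE1 but 0 times before SUOX, and 42.6% of 35116 promoters held it. The CCAAT box, CCAAT, occurred 2 times before SUOX and 0 times before the other two, against 32% of all promoters. The TATA box TATAAA (10.7% of all promoters) and the E-box letters CACGTG (6.34%) had 0 matches in these windows. The core of the antioxidant response element, TGACNNNGC, also had 0 matches and was held by 10.9% of promoters. For the CEBP-ATF element, TGATGNAAN, the count was 0 against 3.13% of promoters. A match or its absence in these letters does not say whether a factor binds. For each of these genes, 30 bases around the match nearest the start are shown so that the start regions can be compared, 5′ to 3′ on the strand of the gene, with that match in capitals and any further match left in lower case.
SQOR (chr15:45634999-45635028, plus strand, GC box 12 to 7 bases before the start): tccgcccggatggcaggcGGGCGGggcccc
ETHE1 (chr19:43527244-43527273, minus strand, GC box read on the other strand, 60 to 55 bases before the start): tccgcccccgccCCGCCCttcccggggtca
SUOX (chr12:55997192-55997221, plus strand, CCAAT box 72 to 68 bases before the start): acccgcttccagCCAATggctgagggataa

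The libraries held 22911380 to 45120508 counts on genes. Hepatocyte markers were present in all libraries (9 of 9, summed 21720 to 28940 CPM, the counts scaled to a common library size by the TMM method). Some single markers differed between groups, and in both directions. APOB was 7272 to 8281 CPM in WT, 6543 to 7134 in shTST and 4925 to 6011 in overTST. ALB was 5127 to 6234 CPM in WT, 6430 to 8342 in shTST and 5250 to 7649 in overTST. Of the other cell type markers, 3 of 5 fibroblast genes and 3 of 4 endothelial genes stayed under 1 CPM in every library. So did 2 of 5 leukocyte genes (PTPRC and CD3E) and 1 of 4 cholangiocyte genes (KRT7). KRT19 (440.7 to 596.1 CPM), SOX9 (233.6 to 285.5) and EPCAM (84.3 to 112.8), the other cholangiocyte genes, were present in all libraries. LYZ, at 1327 to 1741 CPM, carried most of the leukocyte sum of 1332 to 1747 CPM, which was 1602 to 1679 in WT, 1332 to 1488 in shTST and 1502 to 1747 in overTST. The fibroblast sum, nearly all from PDGFRB, was 21.6 to 25.2 CPM in WT, 17.0 to 19.4 in shTST and 15.9 to 17.9 in overTST. The endothelial sum was 2.51 to 3.29 CPM in WT, 1.81 to 2.16 in shTST and 3.40 to 3.91 in overTST, and that of cholangiocyte markers 814 to 959.5 over all libraries. Mitochondrially encoded genes took 6.91% to 11.98% of counts in WT, 6.84% to 8.65% in shTST and 10.84% to 11.73% in overTST. The part of these differences in the results was not tested. Since these are bulk RNA samples, fewer cells with a transcript and less transcript per cell cannot be told apart.

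TST, the targeted gene, stood at 47.2, 47.5, 52.8 and 48.5 CPM in WT, at 33.0, 33.6, 36.6 and 33.5 in shTST, and at 51.8, 56.0, 61.6 and 62.1 in overTST. Every shTST library was below every WT library, while overTST and WT overlapped by 1 library on each side. As a log2 fold change this was −0.52 in shTST versus WT (standard error 0.055, adjusted p = 3.2e-06, edgeR) and 0.24 in overTST versus WT (standard error 0.062, adjusted p = 0.00384, edgeR). With a correction for gene length the second of these was 0.097 and not called (edgeR adjusted p = 0.201). Because the introduced sequence was codon-optimized, its reads need not align to the TST gene, so the counts may not include the transgene.

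Of the 4 genes, SQOR was the one that separated from WT. It had 13.5, 14.5, 13.4 and 15.3 CPM in WT, 11.99, 12.2, 9.68 and 11.4 in shTST, and 18.3, 14.8, 15.2 and 14.5 in overTST. All shTST libraries lay below all WT and all overTST libraries, and overTST overlapped with WT, with replicate 1 of overTST above the rest. In raw counts these were 395 to 659 reads per library in WT, 334 to 363 in shTST and 319 to 489 in overTST, for which counting alone gives a coefficient of variation of 4.48%, 5.40% and 5.09%. The observed coefficients of variation were 6.37%, 10.01% and 11.01%.

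SQOR fell from 14.2 ± 0.902 CPM in WT to 11.3 ± 1.13 CPM in shTST (SD, n = 4 in each group). This is a change of −0.33 on the log2 scale (standard error 0.082, 95% interval −0.50 to −0.16, edgeR quasi-likelihood test with Benjamini-Hochberg adjustment, adjusted p = 0.00796), or 0.795 of the WT level with an interval of 0.707 to 0.895. It was the 1 gene of the 4 called lower in this comparison, in which 9.4% of the 14584 genes tested were called lower, 6.69% higher and 16.1% in either direction. The groups did not overlap, which held in the lower direction for 10.8% of all genes. In the same libraries TST stood at 0.698 of WT (interval 0.645 to 0.755), and the 2 changes were not tested against each other.

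**Figure D1:**
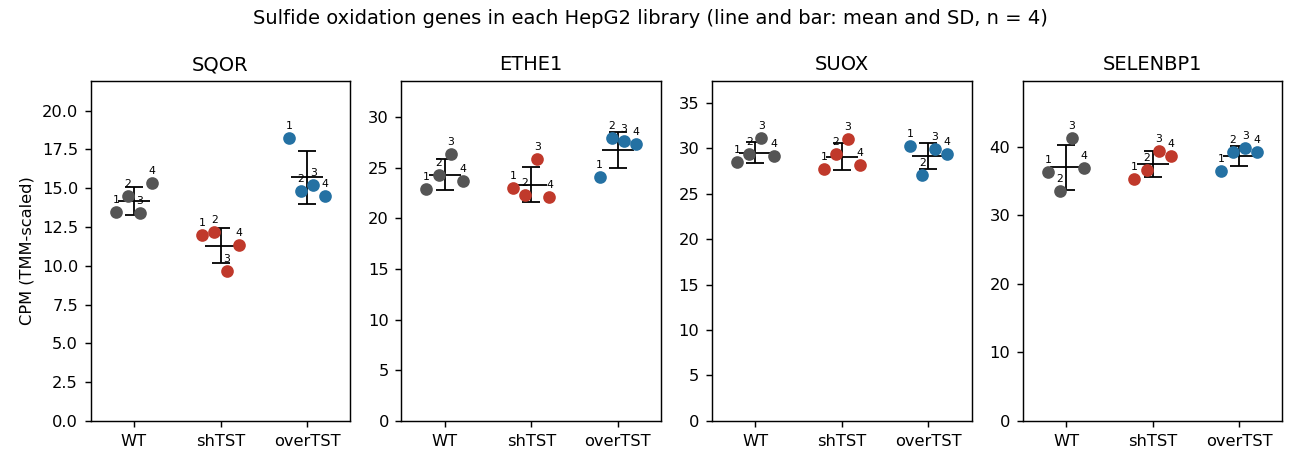
Level of each gene in CPM (TMM-scaled, axes from 0) in the 12 libraries, with the replicate number over each point and the mean and SD (n = 4) in black. The 4 shTST libraries of SQOR, at 9.68 to 12.2 CPM, lie below the WT range of 13.4 to 15.3, whereas the ranges of SUOX and SELENBP1 overlap in all groups.

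In overTST, SQOR stood at 15.7 ± 1.73 CPM (SD, n = 4). Against WT the log2 fold change was 0.15 (standard error 0.085, 95% interval −0.025 to 0.325), which missed the threshold (edgeR adjusted p = 0.182). Leaving out replicate 1 of overTST brought this to 0.065 (edgeR adjusted p = 0.579). Against shTST the log2 fold change was 0.48 (standard error 0.088, 95% interval 0.30 to 0.66, edgeR adjusted p = 0.00019), which is 1.40-fold with an interval of 1.23 to 1.58. All overTST libraries were above all shTST libraries, as were those of 14.7% of all genes tested.

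ETHE1, whose product oxidizes glutathione persulfide, moved less. It had 22.9, 24.3, 26.4 and 23.6 CPM in WT, 23.0, 22.3, 25.8 and 22.1 in shTST, and 24.04, 28.0, 27.6 and 27.3 in overTST. The WT and shTST ranges were almost the same, and 3 of the 4 overTST libraries lay above every other library while replicate 1 lay among WT. In shTST versus WT the log2 fold change was −0.06 (95% interval −0.196 to 0.079, edgeR adjusted p = 0.602). Between overTST and WT it was 0.14 (95% interval −0.006 to 0.28, edgeR adjusted p = 0.133).

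ETHE1 rose in overTST relative to shTST, to 26.7 ± 1.81 CPM (SD, n = 4) from 23.3 ± 1.74 (SD, n = 4), although the groups overlapped. The log2 fold change was 0.20 (standard error 0.069, 95% interval 0.054 to 0.337, edgeR adjusted p = 0.0311). This call was not stable. It was lost on a correction for gene length (log2 fold change 0.05, edgeR adjusted p = 0.567) and on a correction for GC content (0.06, edgeR adjusted p = 0.49). It was also lost when any 1 of shTST replicates 1, 2 and 4 or overTST replicates 2, 3 and 4 was left out (0.17 to 0.19, edgeR adjusted p from 0.0643 to 0.0987). ETHE1 is short and GC-rich for a gene of these libraries: its exonic length was at the 12.5th percentile of 14883 genes, and the GC content of its longest transcript, 63.5%, at the 93.4th. TST was placed much the same, at the 16.4th percentile of length and the 93.8th of GC content.

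In overTST versus WT, 0 of the 4 genes passed the threshold by edgeR, DESeq2 or limma-voom, and 0 had an unadjusted edgeR p under 0.05, in a comparison that called 33.9% of 14421 genes, 15.7% higher and 18.2% lower. All 4 overlapped with WT, while the groups stood apart for 30.4% of genes. In overTST versus shTST, 2 of the 4 were called, both higher, where 16.1% of the 14883 genes tested were called higher, 16.9% lower and 33% in either direction. This comparison is the test of whether the change from WT differed between the 2 lines. It rests on the same shTST and overTST libraries as the 2 comparisons with WT, which in turn share the WT libraries, so the 3 are not independent.

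**Figure D2:**
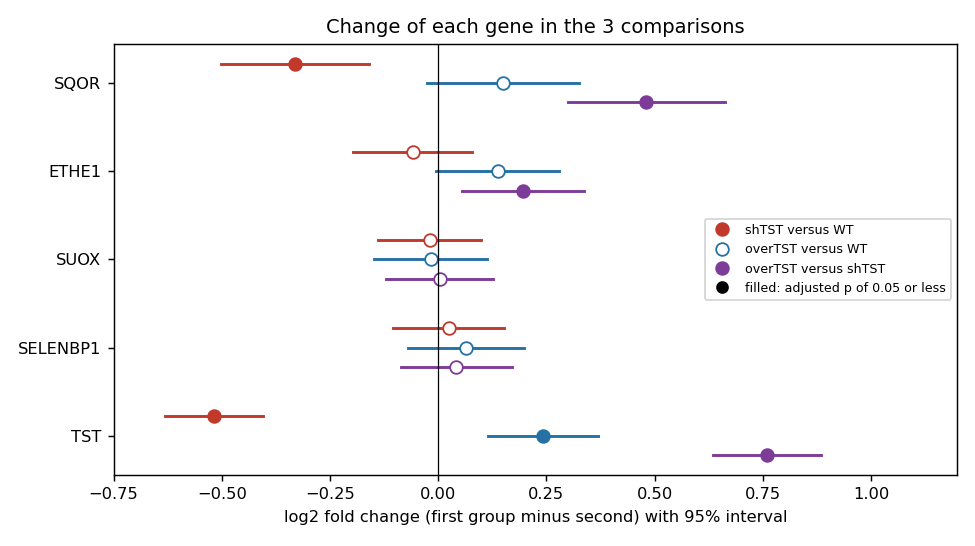
Log2 fold change (first group minus second) with its 95% interval for the 4 genes and for TST in the 3 comparisons, filled where the edgeR adjusted p was 0.05 or less. SQOR was called at −0.33 in shTST versus WT and 0.48 in overTST versus shTST, ETHE1 at 0.20 in overTST versus shTST, and SUOX and SELENBP1 have 0 in every interval.

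SUOX, the last enzyme of the route, was not called in any comparison. It had 28.5, 29.3, 31.2 and 29.2 CPM in WT, 27.8, 29.4, 31.0 and 28.1 in shTST, and 30.3, 27.0, 29.9 and 29.4 in overTST. All 3 groups overlapped, with means of 29.5 in WT, 29.1 in shTST and 29.2 in overTST. The log2 fold changes were −0.02 in shTST versus WT (95% interval −0.14 to 0.10, edgeR adjusted p = 0.854), −0.02 in overTST versus WT (−0.148 to 0.113, edgeR adjusted p = 0.859) and 0.00 in overTST versus shTST (−0.121 to 0.126, edgeR adjusted p = 0.979). The intervals therefore leave room for changes of 0.902- to 1.09-fold, and a smaller difference was not detectable with these replicates. SUOX also had the smallest replicate spread of the 4 genes in WT, with a coefficient of variation of 3.90% against 3.11% from counting alone.

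SELENBP1, the methanethiol oxidase, was the gene with most reads of the 4, at 863 to 1526 per library. It had 36.4, 33.5, 41.4 and 36.9 CPM in WT, 35.3, 36.7, 39.5 and 38.7 in shTST, and 36.4, 39.3, 39.8 and 39.2 in overTST. WT held both the lowest and the highest library, so the other groups lay within its range. The log2 fold changes were 0.02 in shTST versus WT (95% interval −0.105 to 0.153, edgeR adjusted p = 0.836), 0.06 in overTST versus WT (−0.069 to 0.199, edgeR adjusted p = 0.472) and 0.04 in overTST versus shTST (−0.086 to 0.17, edgeR adjusted p = 0.652). As folds, these intervals run from 0.930 to 1.15. The spread in WT, with a coefficient of variation of 8.76%, was larger than the 2.79% that counting gives.

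Levels were compared between genes only per exonic length, as RPKM (CPM per kilobase of exon). In WT the order was ETHE1 at 15.2 ± 0.932, SELENBP1 at 10.6 ± 0.926, SUOX at 5.90 ± 0.230 and SQOR at 4.59 ± 0.292 RPKM (SD, n = 4 each), below TST at 25.3 ± 1.34. No WT library of 1 gene reached into the range of its neighbour in this order, and the same order held in shTST and in the group means of overTST. In overTST the ranges of SUOX (5.40 to 6.04 RPKM) and SQOR (4.70 to 5.91 RPKM) overlapped, through replicate 1. Among the genes tested, the WT level of ETHE1 was at the 80.2nd percentile. That of SQOR, at the 56.9th, was the lowest of the 4 as counted. SQOR shares 28.5% of its exonic length with a same-strand gene, and reads there may have gone uncounted. Its level may therefore be understated, and its place below SUOX is not settled.

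Ratios of 2 genes within a library do not depend on the scaling between libraries. The RPKM of SQOR was 0.698 to 0.851 of that of SUOX in WT, 0.506 to 0.700 in shTST and 0.801 to 0.978 in overTST, so that WT and shTST met at their edges. Relative to ETHE1 it was 0.264 to 0.336 in WT, 0.195 to 0.284 in shTST and 0.276 to 0.394 in overTST. Relative to TST it was 0.159 to 0.198 in WT, 0.166 to 0.228 in shTST and 0.146 to 0.221 in overTST, and here all groups overlapped.

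**Figure D3:**
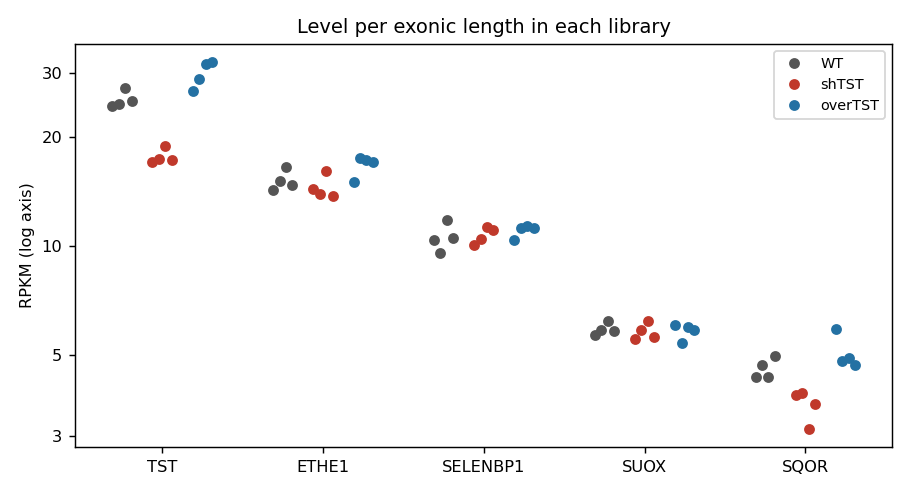
RPKM (log axis) of TST and the 4 sulfide oxidation genes in each of the 12 libraries. In WT the means run from 25.3 RPKM for TST and 15.2 for ETHE1 through 10.6 for SELENBP1 and 5.90 for SUOX to 4.59 for SQOR, and the groups stand apart for TST and SQOR in shTST.

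Over the 12 libraries, which share the group differences just described, log2 CPM of SQOR and TST had a Pearson r of 0.74 (Spearman's rho 0.71) and that of ETHE1 and TST an r of 0.76 (rho 0.83). SQOR and ETHE1 had an r of 0.26 with each other, ETHE1 and SELENBP1 0.61, and SUOX at most 0.30 with any of the other three. These values describe 3 groups of libraries and carry no test. SQOR and TST did not rise together within a group: in each, the library with the highest TST had the lowest SQOR. These were WT replicate 3 (52.8 CPM of TST and 13.4 of SQOR), shTST replicate 3 (36.6 and 9.68) and overTST replicate 4 (62.1 and 14.5). Among 11490 genes, the patterns most like SQOR were those of DAPK3 (r = 0.953), KCMF1 (0.922) and FILIP1L (0.921). Those most like ETHE1 were MAPK3 (0.957), CDPF1 (0.954) and GPX4 (0.951), the last encoding a glutathione peroxidase that reduces lipid hydroperoxides. For SELENBP1 they were DMAC1 (0.91), AKR1B1 (0.909) and PKIG (0.899), and for SUOX, with weaker likeness, UBAC2 (0.763), TMEM9B (0.756) and PNISR-AS1 (0.753).

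The genes around the route were read from 10 lists of 69 genes in all, of which 59 passed the filter on low counts. TST, the targeted gene, is among the 59 and among the genes called in every comparison. In shTST versus WT, 6.69% of all genes tested were called higher and 9.4% lower. Of the 59, 1 was called higher and 9, TST among them, lower. That is 16.9% against 16.1% of all genes tested, with a median log2 fold change of −0.027 against 0.004. This count was 6 without shTST replicate 1 (0 higher and 6 lower) and 15 with the replicate number as a block (1 higher and 14 lower). Against WT, overTST had 13 higher and 11 lower genes (40.7% against 33.9%, median 0.017 against 0.002). In overTST versus shTST 16 were higher and 9 lower (42.4% against 33%, median 0.048 against −0.001). The 10 genes below the filter had at most 9 counts in any library: TSTD1, TSTD3, GADL1, FMO1, XDH, GPD2, PRODH, CHAC1, SLC13A4 and PAPSS2.

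**Figure D4:**
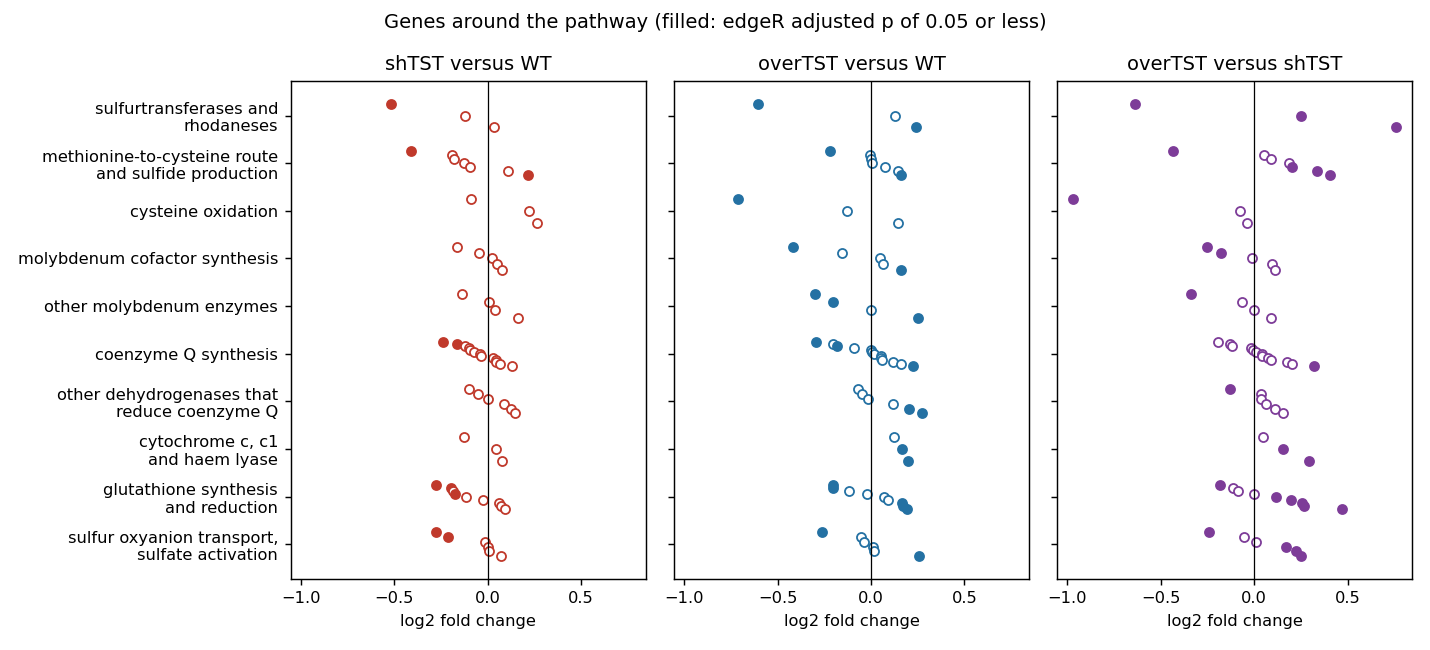
Log2 fold change (first group minus second) of the 59 genes tested from the 10 lists, TST included, in the 3 comparisons, filled where the edgeR adjusted p was 0.05 or less. In shTST versus WT 9 of the 10 called genes, TST among them, lie left of 0. Of all genes tested there, 9.4% were called lower and 6.69% higher. In both overTST comparisons called genes lie on both sides.

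Upstream of SQOR, the list of the methionine-to-cysteine route and sulfide production had 7 genes, all tested. In shTST versus WT, GOT1, an aspartate aminotransferase that also supplies mercaptopyruvate from cysteine, fell by 0.41 on the log2 scale (edgeR adjusted p = 5e-06), and MAT2A, which makes S-adenosylmethionine and no sulfide, rose by 0.22 (edgeR adjusted p = 0.0109). Against WT, MAT2A fell by 0.22 in overTST (edgeR adjusted p = 0.00263) and CARS2, a mitochondrial cysteinyl-tRNA synthetase able to form cysteine persulfide, rose by 0.16 (edgeR adjusted p = 0.021). MAT2A in shTST lost its call without shTST replicate 1, and CARS2 without a filter and without WT replicate 1 or overTST replicate 4. In overTST versus shTST, 16.1% of all genes were called higher and 16.9% lower. Of this list 3 genes were higher and 1 lower, with GOT1 at 0.40, AHCY at 0.20 and MAT2A at −0.43. The remaining higher gene, CBS, cystathionine beta-synthase, had 0.34 (edgeR adjusted p = 0.0176) with no overlap between the groups, and is outside the naming rule, chosen after its values were seen. GOT1 and MAT2A thus differed in opposite directions between the lines. Against WT, however, GOT1 was not called in overTST (−0.008, edgeR adjusted p = 0.926), and neither were AHCY (0.073) and CBS (0.143).

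Of the sulfurtransferases and rhodaneses, 3 of 5 were tested. TSTD2 was 0.659 of WT in overTST (log2 fold change −0.60, edgeR adjusted p = 0.00011), with a mean of 6.26 against 9.48 CPM. MPST, which forms persulfide from mercaptopyruvate and lies next to TST with 6 shared exonic bases, was higher in overTST than in shTST by 0.25 (edgeR adjusted p = 0.00241), although the groups overlapped, and was not called against WT. In the oxidation of cysteine to sulfite, the other source of the SUOX substrate, CDO1, the cysteine dioxygenase, was lower in overTST. It stood at 2.98 ± 0.508 CPM in WT and 1.81 ± 0.413 CPM in overTST (SD, n = 4 in each group), which is −0.71 on the log2 scale (95% interval −1.08 to −0.33, edgeR adjusted p = 0.00378). The other two tested genes of that list were not called in any comparison.

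SUOX needs the molybdenum cofactor. In shTST versus WT, edgeR called 16.1% of all genes. It called 0 of the 5 genes of cofactor synthesis and 0 of the 4 tested genes of other molybdenum enzymes. Each list had 1 gene with an unadjusted edgeR p under 0.05, DESeq2 called 0 and 1, and limma-voom 0 and 0. The GC correction and the replicate block each called 1 gene of each list. With the block and length correction, or without WT replicate 2, 1 gene of cofactor synthesis was called. The fit of all 12 libraries called 1 of the other molybdenum enzymes. Between overTST and WT, GPHN, which inserts molybdenum, was lower by a log2 fold change of −0.42 (edgeR adjusted p = 6.2e-05) and MOCS2, a subunit of molybdopterin synthase, higher by 0.16 (edgeR adjusted p = 0.0361). AOX1, aldehyde oxidase, had −0.30 (edgeR adjusted p = 0.00152), MOCOS, the sulfurase that activates it, −0.20 (edgeR adjusted p = 0.0047) and MTARC2, an amidoxime-reducing enzyme, 0.25 (edgeR adjusted p = 0.0489). MTARC2 was called under 7 of 12 other settings and in 0 of 8 fits without 1 library, MOCS2 under 11 and in 3, and MOCOS was not called with the length correction. In overTST versus shTST, MOCS3 (−0.18), GPHN (−0.25) and AOX1 (−0.34) were the genes of both lists that were called, all lower, and MOCS3 kept its call in only 6 of 12 fits without 1 library.

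SQOR hands its electrons to coenzyme Q. Of 13 coenzyme Q synthesis genes, COQ8A (−0.16, edgeR adjusted p = 0.0114) and COQ8B (−0.24, edgeR adjusted p = 0.0271), atypical kinases of that pathway, were lower in shTST than in WT, and 11 were not called. Over all genes, 16.1% were called in that comparison and 9.4% were lower. COQ8B lost its call with the GC correction and without WT replicate 3 or shTST replicate 1 or 2. COQ4 was higher in overTST than in WT (0.22, edgeR adjusted p = 0.00804) and PDSS2 (−0.30, edgeR adjusted p = 0.021) and COQ8A (−0.18, edgeR adjusted p = 0.00401) lower. With the length correction COQ8A was no longer called there, and PDSS2 lost its call without WT replicate 1 or overTST replicate 2 or 4. COQ4 was the 1 gene of the list called in overTST versus shTST, at 0.32. The list of other dehydrogenases that feed coenzyme Q had 6 tested genes, with the subunits of succinate dehydrogenase counted singly. Of these genes, 0 were called in shTST versus WT by edgeR, DESeq2 or limma-voom, and 0 had an unadjusted edgeR p under 0.05. DHODH (0.21) and SDHD (0.27) were higher in overTST than in WT, and DHODH kept its call in 2 of 8 fits without 1 library. SDHC was lower in overTST than in shTST (−0.13, edgeR adjusted p = 0.0262), a direction that turned to 0.03 on the length correction and a call kept in 7 of 12 fits without 1 library. CYCS, cytochrome c, the electron acceptor of SUOX, and CYC1 of complex III were higher in overTST than in WT, by 0.20 (edgeR adjusted p = 0.00219) and 0.17 (edgeR adjusted p = 0.0111). CYC1 fell to 0.023 and lost its call with the length correction, and lost it also without overTST replicate 2.

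Glutathione accepts the sulfur that SQOR releases. Of 9 tested genes of its synthesis and reduction, 3 were lower in shTST than in WT and 0 higher, where 9.4% of all genes were lower: GLRX, a glutaredoxin (−0.28, edgeR adjusted p = 0.00168), GCLM, the modifier subunit of glutamate-cysteine ligase (−0.20, edgeR adjusted p = 0.0224), and GGT1, which breaks down extracellular glutathione (−0.17, edgeR adjusted p = 0.0341). The count was 1, GLRX, without WT replicate 4, and GCLM and GGT1 each kept their call in 4 of 8 fits without 1 library. GSS (0.17) and GLRX5 (0.17) were among 3 genes higher in overTST than in WT. GCLC, the catalytic ligase subunit (−0.20, edgeR adjusted p = 0.00745), was among 2 lower ones. Over all genes, 15.7% were called higher there and 18.2% lower. With the length correction the list had 2 calls in place of 5, and GSS, GLRX5 and GCLC were no longer called. Without WT replicate 1 or overTST replicate 3 it had 3. In overTST versus shTST, 16.1% of all genes were called higher and 16.9% lower. Of this list, 5 were higher, including GLRX (0.47) and GGT1 (0.27), and 1, GSR, the glutathione reductase, was lower (−0.19). These 3 kept their call under every alternative, while the list had 3 calls in place of 6 with the length correction.

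For sulfate, the end product, 6 of 8 transport and activation genes were tested. The anion exchangers SLC26A6 (−0.28, edgeR adjusted p = 0.00072) and SLC26A1 (−0.21, edgeR adjusted p = 0.0211) were lower in shTST than in WT, and SLC26A1 lost its call with the GC correction and without WT replicate 4 or shTST replicate 1. In overTST versus WT, SLC25A10, the mitochondrial dicarboxylate carrier that also carries sulfite, sulfate and thiosulfate, was higher (0.26, edgeR adjusted p = 0.00058), and SLC26A2 was lower (−0.26, edgeR adjusted p = 0.0357). SLC26A2 kept its call under 8 of 12 other settings, not with upper-quartile scaling or the length and GC corrections, and in 3 of 8 fits without 1 library. In overTST versus shTST, SLC25A10 (0.25), SLC26A6 (0.22) and SLC26A1 (0.17) were higher, 3 of the 4 genes called. With the GC correction 0 of the 4 were called. Over all genes, 33% were called in this comparison.

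The 4 genes differed in how firmly their values stood under other ways of processing. SQOR was called lower in shTST than in WT and higher in overTST than in shTST under every one of 12 other settings and with any single library left out, with log2 fold changes of −0.36 to −0.26 and 0.40 to 0.52. Its change in overTST versus WT was not called under any of them, at 0.065 to 0.192. ETHE1 in overTST versus shTST was called under 8 of 12 other settings and in 6 of 12 fits that left out 1 library. SUOX and SELENBP1 were not called under any setting in the 3 comparisons.

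**Figure D5:**
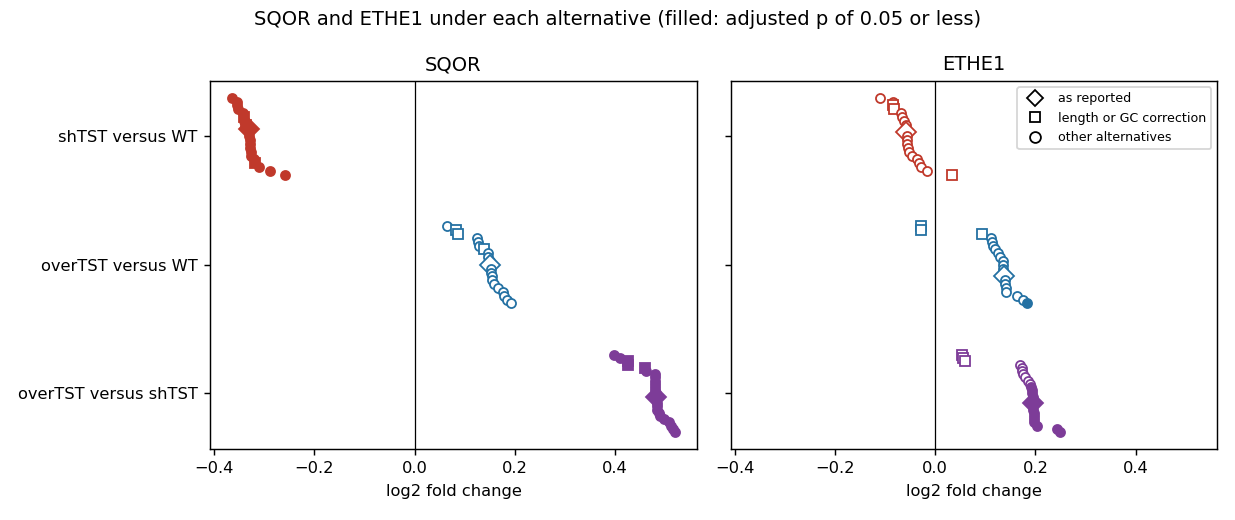
Log2 fold change (first group minus second) of SQOR and ETHE1 as reported (diamonds), with a length or GC correction (squares) and under the other alternatives, each left-out library included (circles), filled where the adjusted p was 0.05 or less. SQOR stays left of 0 in shTST versus WT and at 0.40 to 0.52 in overTST versus shTST, while the corrected values of ETHE1 in overTST versus shTST, 0.054 to 0.059, are open and lie apart from the rest.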

How the data were processed

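The authors deposited whole-number read counts per Ensembl gene for each library, without normalization, on GRCh38. The submitters' processing notes name Trimmomatic 0.36, STAR 2.5.2b and featureCounts of Subread 1.5.2, and the strand setting, the treatment of reads with several matches and the annotation release are not given in the sources used here. Reads shared by overlapping genes may therefore be split or dropped, which touches SQOR and ETHE1. Of 57500 identifiers, 56410 had a symbol and 56898 are in GENCODE 29. Groups came from the sample labels, and the members and gene lists were chosen with earlier results of these data known.

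Counts were filtered with edgeR's filterByExpr, scaled by TMM and tested by edgeR's quasi-likelihood test with Benjamini-Hochberg adjustment over all genes tested, at an adjusted p of 0.05. shTST versus WT and overTST versus WT used only the 8 libraries of those groups (14584 and 14421 genes), and overTST versus shTST all 12 (14883 genes). Standard errors came from the F statistic, as log2 fold change over its square root, and intervals are at 95%. CPM and RPKM use TMM sizes of all 12 libraries, and log2 CPM used a prior count of 2. The biological coefficient of variation was 5.85%, 6.41% and 6.02%. Depth was 22911380 to 45120508 counts, and the counting error given for a gene covers counting only. The series calls the replicates independent, which the study's methods define as experiments on different days, and p-values measure the spread between these libraries. No 2 replicates agreed within counting noise (chi-square per gene 3.58 to 35.3). The named genes are the 4 members, TST, up to 3 called genes with the smallest p per list and comparison, and the 3 genes most like each member in Pearson r. The alternatives were RLE and upper-quartile scaling, DESeq2, limma-voom, no filter, a minimum of 1 CPM in 4 libraries, no mitochondrially encoded genes, corrections for length and GC content (lowess, span 0.3), the replicate number as a block, another set of libraries in the fit, and leaving out each library. edgeR, DESeq2, limma-voom and the length correction were also run on simulated counts. These counts held no length or GC trend and no pairing of replicates. They therefore cannot show how well the length and GC corrections or the replicate block work. Software was R 4.3.3, edgeR 4.0.16, limma 3.58.1, DESeq2 1.42.0, Python 3.11.15 and matplotlib 3.10.9.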

Additional observations from a re-analysis of the deposited data

Results flagged for a closer look

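The change from WT differed between the lines for SQOR, with overTST minus shTST at 0.481 on the log2 scale, for ETHE1 at 0.195 and for TST at 0.76, each by the edgeR test of overTST versus shTST in the fit of all 12 libraries (adjusted p of 0.00019, 0.0311 and 3.3e-09). Of 15 groups of 4 libraries examined, 3 held a library far from the others by Dixon's 95% criterion, which flags about 1 in 20 groups by chance. The lowest overTST library of ETHE1 (24.04 CPM) and that of SELENBP1 (36.43 CPM) were both replicate 1, the same library that was highest for SQOR at 18.3 CPM. Without it, ETHE1 in overTST versus WT had a log2 fold change of 0.18 (edgeR adjusted p = 0.0386). The highest shTST library of TST was replicate 3, at 36.55 CPM, which was also the lowest for SQOR at 9.68 CPM.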

How the results depend on the processing

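The directions and calls of SQOR and TST held under all alternatives, except that TST in overTST versus WT lost its call in 2 of 12 settings, both with the length correction (down to 0.094, adjusted p up to 0.201). For ETHE1, overTST versus shTST was no longer called without a filter (0.175, adjusted p = 0.0912), with the length correction (0.054), the GC correction (0.059) or the replicate block with length correction (0.055), and ranged from 0.17 to 0.25 with 1 library left out. In overTST versus WT it turned to −0.028 with the length correction, alone and with the block, and ranged from 0.111 to 0.184 with 1 library left out, past the threshold without overTST replicate 1. In shTST versus WT it turned to 0.034 with the GC correction. Values of SUOX near 0 changed sign without a call: in shTST versus WT 0.001 (upper-quartile) and −0.051 to 0.008 (1 library left out), in overTST versus WT 0.01 (upper-quartile), 0.018 (length), 0.016 (block with length) and −0.038 to 0.018 (1 library left out), and in overTST versus shTST −0.017 (no filter), −0.013 (GC) and −0.018 to 0.037 (1 library left out). SELENBP1 did so in shTST versus WT (−0.024 to 0.082, 1 library left out) and overTST versus shTST (−0.035, GC). SDHC in overTST versus shTST turned to 0.034 with the length correction, alone and with the block. The cause was not tested.

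The genes called in shTST versus WT numbered 2346, and 1513 to 2336 with 1 library left out, lowest without shTST replicate 1. Of those called, 41.6% were higher, and 52.7% under upper-quartile scaling. Whether same-numbered replicates were made together is not given in the labels. Correlations of same-numbered libraries, in their deviations from the group mean, were −0.0527 to 0.0801. Such low values cannot decide whether the libraries were paired. With the replicate block 2980, 5166 and 5232 genes were called in place of 2346, 4893 and 4907, no call of the 4 genes changed, and the calls among the 59 genes around the route in shTST versus WT went from 10 to 15.

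As TPM, which is another unit, the levels in WT, shTST and overTST were 12.86, 10.67 and 12.16 for SQOR, 42.7, 42.35 and 39.82 for ETHE1, 16.61, 16.95 and 13.92 for SUOX, and 29.8, 31.29 and 26.39 for SELENBP1. TPM moved the median of all genes by −0.231 (log2) in overTST versus WT and by −0.289 in overTST versus shTST. Of the 3 genes most like each member, Spearman's rho kept 0 for SQOR and 1 each for ETHE1, SUOX and SELENBP1, and length-corrected values kept 1, 0, 0 and 1. For single genes of the lists, 1018 of the alternative values kept their direction and call, 100 lost the call and 2 turned.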
